A study of Mus musculus with 9 samples.

Results

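Abdominal irradiation was compared with no irradiation in the mouse intestine: 3 libraries of irradiated mice (IR) were set against 3 libraries of unirradiated controls, and the 3 libraries of mice given lycopene with irradiation stayed out of the fit. Every gene with at least 0.5 FPKM (the deposited unit, fragments scaled to gene length and to a divisor for each library) in at least 3 of these 6 libraries was kept, which left 14846 of the 54532 genes in the deposited table. The series asks whether the carotenoid lycopene lessens radiation injury of the gut, and the IR group is its untreated injury. Control and IR mice received the corn oil vehicle by gavage for 10 days, IR mice received 12 Gy to the whole abdomen on day 4 of that course, and intestine was taken when the experiment ended. Strain, sex, age, gut segment and layer are not stated. Nothing in the labels says that the 3 libraries of a group are separate animals, and the p-values then cover only the spread among these samples, which may be technical.

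Ionizing radiation breaks DNA, and cells with broken DNA accumulate the transcription factor p53, which switches on genes of growth arrest and cell death. The lining of the small intestine is renewed from dividing stem and progenitor cells in the crypts, while the wall behind it holds plasma cells that secrete immunoglobulin A, lymphocytes that sit between the epithelial cells, macrophages, fibroblasts and smooth muscle. Dividing crypt cells and lymphocytes are known as radiosensitive, and smooth muscle is not a dividing tissue.

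The libraries held 18008213 to 20107262 recovered reads, and IR 2 stood apart from IR 1 and IR 3. The divisor behind the deposited FPKM was not the read total: it was 0.875, 0.96 and 0.898 times that total in the controls and 0.993, 1.2 and 0.968 times in IR 1, IR 2 and IR 3. It was thus higher in every IR library than in any control. Scaling to the read totals instead, an alternative chosen after seeing the data, moved the median difference of all genes by 0.15 on the log2 scale. Spearman correlations over the tested genes were 0.972 to 0.982 among the controls, 0.956 to 0.981 among the IR libraries and 0.909 to 0.970 between the groups. On the first principal component, with 60.9% of the variance, the controls lay at -36.0, -15.5 and -24.1, and IR 1, IR 2 and IR 3 at 12.0, 57.8 and 5.73. The groups did not overlap on it, and IR 2 lay far beyond the other IR libraries, so medians without IR 2 are given beside those of the gene lists. Markers of intestine were present in all 6 libraries. The homeobox gene Cdx2 was at 85.8, 88.7 and 102 FPKM in the controls against 80.8, 78.3 and 106 after irradiation. The Paneth cell lysozyme gene Lyz1 was at 7689.8, 9218 and 9179 in the controls against 6189.7, 4099 and 3822 after irradiation. Of 11 listed colon markers, 7 were expressed enough to be tested, and the list summed to 109 to 135 FPKM in the controls and 32.8 to 88.8 in IR, most of it from Car4 and Mettl7b. Car1 reached at most 0.0712 FPKM, and Aqp8 and Hoxd13 were listed at 0 throughout. Fabp6, a bile acid binding protein gene of the ileum, was at 0.593, 89.9 and 253 FPKM in the controls against 305, 1561 and 119 after irradiation, and the groups overlapped. Because these are bulk samples, fewer cells of a type and less RNA per cell cannot be told apart in any of the results.

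Of the 14846 genes, 109 (0.734%) differed between IR and control at an adjusted p under 0.05 in limma's moderated test on log2(FPKM + 1), 40 higher (0.269%) and 69 lower (0.465%). Without adjustment 2699 genes (18.2%) had a p under 0.05, and at 4221 genes (28.4%) the 3 IR values did not overlap the 3 control values, 2120 of them higher (14.3%) and 2101 lower (14.2%). The median difference over all tested genes was -0.01 on the log2 scale. Among the 69 that fell were 15 immunoglobulin gene segments, 9 T cell receptor segments and 10 further members of the T cell and plasma cell lists, and 35 were outside these. What rose included 9 members of the smooth muscle and collagen lists, 3 targets of p53 and 2 members of the macrophage and granulocyte lists. Of the 109 genes, 57 had a mean of at least 5 FPKM in the higher group and 11 had fewer than 10 reads in every library, so the levels of the latter rest on few reads. The number called depended on the libraries: it was 10 without control 1, 20 without control 2, 2 without control 3, 12 without IR 1, 99 without IR 2 and 21 without IR 3, and 4 when the lycopene libraries shared the fit. Scaled to the read totals it was 62, 20 higher and 42 lower. The direction of all 109 was kept in each of these fits. Apart from genes singled out as seen first, Cdx2, Ighm, Ighd, Igkc, Jchain, Prdm1, Ms4a1, Sdc1, Cd3g, Prf1, Gzma, Gzmb, Cd4, the other T cell receptor segments, Col1a1, Col3a1, Csf1r, Lyz2, Clu, Ly6a, Mmp7, Pla2g2a, Cyp2b10, Cyp2c66, Isx, Reg3g, Arntl and Clock are also named outside the rule, with their values seen.

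**Figure D1:**
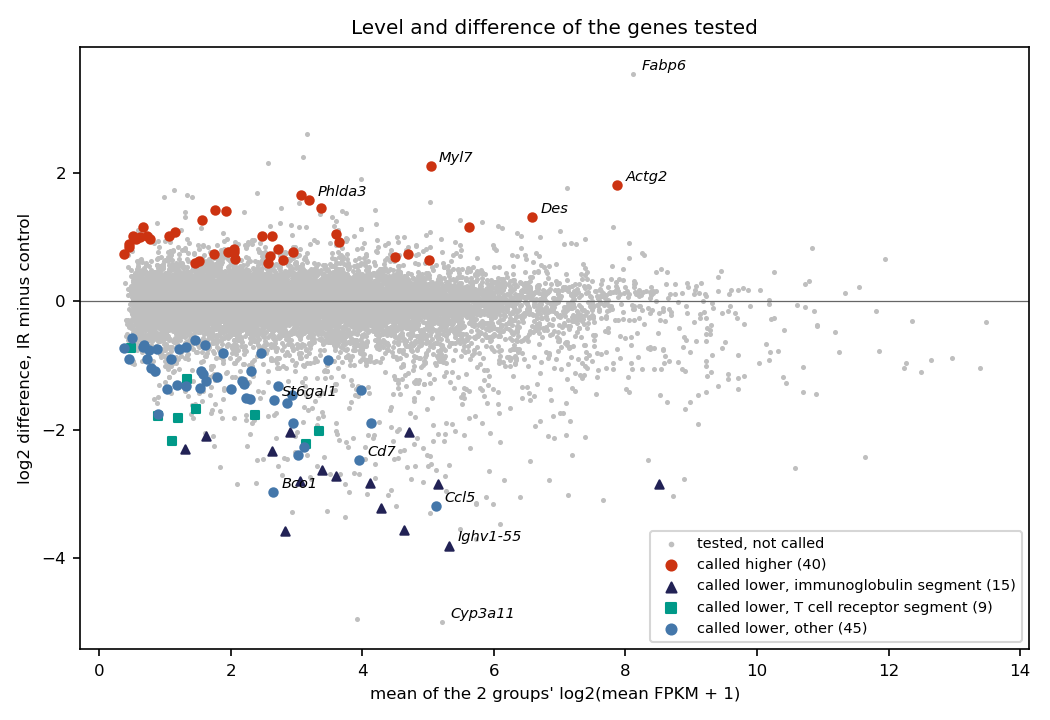
Level and difference of the 14846 genes tested. The x axis is the mean of the log2(mean FPKM + 1) of the groups, the y axis the difference IR minus control on the log2(FPKM + 1) scale, and each point is a gene, with the 40 genes called higher and the 69 called lower in colour and marker by class. Immunoglobulin segments have the lowest differences among the called genes, down to -3.81 for Ighv1-55, while Cyp3a11 at -5.0 and Fabp6 at 3.54 did not pass the test.

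The genes called lower with the largest differences were immunoglobulin segments. Immunoglobulin genes of every kind made up 6.45, 4.56 and 4.54% of the summed FPKM in the controls and 1.26, 0.689 and 1.65% in the IR libraries. Every IR library lay below every control, and the exact two-sided permutation p was 0.1, the smallest that 3 against 3 allow. Of the 191 segments tested, 189 were lower in IR with a median log2 difference of -2.07, and 15 were called, against 0.465% of all genes called lower. In IR 1, IR 2 and IR 3 the median of the segments lay at -1.92, -2.63 and -1.69 relative to the control mean, where single controls spanned -0.17 to 0.39. The median without IR 2 was -1.78, with 19 called. The number called fell to 1 without control 3 and to between 5 and 7 without control 1, control 2, IR 1 or IR 3.

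Each class of segment had nearly all of its members lower. Heavy chain variable segments were lower in 85 of 85 (median -2.1, 6 called), kappa variable segments in 78 of 80 (median -2.04, 6 called), lambda variable segments in 3 of 3 (1 called) and constant regions in 11 of 11 (median -1.66, 1 called). The called constant region was Iglc2, of lambda light chains, at 46.7, 50.4 and 58.8 FPKM in the controls against 13.9, 11.1 and 10.9 after irradiation, a fall of 2.03 in log2 (standard error 0.14, adjusted p = 0.013). The heavy chain of immunoglobulin A, Igha, was at 4482, 2990.1 and 3339.9 FPKM in the controls against 699, 302 and 941 after irradiation. Its groups did not overlap, and its difference of -2.6 missed the threshold (adjusted p = 0.0695). It passed in the fit without IR 2 (adjusted p = 0.0382) and in no other alternative. The kappa constant region Igkc was at 9173, 5285 and 6941 FPKM in the controls against 1442, 718 and 2109 after irradiation (adjusted p = 0.0833). The groups overlapped for the heavy chains of immunoglobulin M and D: Ighm was at 13., 125 and 74.2 FPKM in the controls against 14.9, 32.1 and 17.2 after irradiation, and Ighd at 0.419, 17.7 and 10.4 in the controls against 0.616, 2.97 and 1.55 after irradiation.

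Single variable segments fell by several fold. Ighv1-55 (ENSMUSG00000095589), on the minus strand of chromosome 12 between 115208095 and 115208591 (GENCODE M21 on GRCm38, as all positions here), was at 104, 101 and 249 FPKM in the controls against 13.4, 5.25 and 9.86 after irradiation, a fall of 3.81 in log2 (standard error 0.45, adjusted p = 0.0285). Ighv1-26 was the most abundant segment called, at 1032, 1112 and 685 FPKM in the controls against 226, 77.9 and 117 after irradiation (log2 -2.85, adjusted p = 0.0475). Ighv6-6, Ighv9-2 and Ighv1-7 fell by 3.23, 2.8 and 2.34, and the joining segment Ighj3, with at most 24 reads in a library, by 3.58. Every control value of these segments lay above every IR value. Among the kappa segments Igkv4-55 fell from 60.1, 171 and 43.9 to 6.71, 5.63 and 4.61 FPKM (log2 -3.56), Igkv4-68 from 37.2, 45.4 and 49.4 to 4.0, 3.95 and 8.86 (log2 -2.84) and Igkv12-41 from 33.1, 23.3 and 33.7 to 5.42, 2.43 and 3.46 (log2 -2.73). For Igkv4-55 control 2 was far above the other controls.

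Related kappa segments share stretches of sequence, so short reads can be split between them. Igkv3-4, Igkv3-9 and Igkv3-12, all on chromosome 6, were called lower. Igkv3-4 was at 28.6, 28.2 and 18.7 FPKM in the controls against 4.1, 2.35 and 3.18 after irradiation (log2 -2.63, standard error 0.22, adjusted p = 0.0157), and Igkv3-12 at 113, 109 and 58.4 in the controls against 8.5, 18.6 and 9.72 after irradiation (log2 -2.85, standard error 0.36, adjusted p = 0.0335). Igkv3-9, named outside the rule for naming genes after its values were seen, had 38, 19 and 26 reads in control and 0, 0 and 2 in IR. The last 120 coding bases of each, from the GENCODE M21 transcripts, are shown 5′ to 3′ with the 21 positions at which they differ in capitals, because a read must cover such positions to tell them apart:
Igkv3-4: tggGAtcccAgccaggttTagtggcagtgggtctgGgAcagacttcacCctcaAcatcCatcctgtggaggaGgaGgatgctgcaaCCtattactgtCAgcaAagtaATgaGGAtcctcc
Igkv3-9: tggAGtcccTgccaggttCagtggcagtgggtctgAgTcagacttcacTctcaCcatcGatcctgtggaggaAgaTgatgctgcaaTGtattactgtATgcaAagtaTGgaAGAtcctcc
Igkv3-12: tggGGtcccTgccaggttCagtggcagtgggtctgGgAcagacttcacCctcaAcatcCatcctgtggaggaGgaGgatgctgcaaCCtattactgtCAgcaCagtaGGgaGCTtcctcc
Over the coding sequence Igkv3-4 was 88.9% identical to Igkv3-9 and 89.7% to Igkv3-12, and Igkv3-9 was 87.2% identical to Igkv3-12. Of the 50-base windows of Igkv3-4, Igkv3-9 and Igkv3-12, 34.1, 20.7 and 58.4% also occur in another kappa segment of the annotation. Of the 100-base windows 0, 0.385 and 3.46% do. Neither the read length nor the treatment of reads with several matches is stated.

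Genes of plasma cells fell as well. Of 25 tested B and plasma cell genes 24 were lower (median log2 -1.34, -1.5 without IR 2) and 5 were called (20%, against 0.465% of all genes), Iglc2 among them. The list includes immunoglobulin constant regions, such as Igha, Ighm, Igkc and Iglc2, that are already counted among the segments above, so its counts are not separate from theirs. Mzb1, a chaperone of antibody assembly in the endoplasmic reticulum, was at 32.1, 34.7 and 31. FPKM in the controls against 9.05, 5.55 and 10.1 after irradiation, a fall of 1.9 in log2 (standard error 0.20, adjusted p = 0.0244). Derl3, of the degradation of misfolded secretory proteins, was at 7.44, 5.66 and 7.47 FPKM in the controls against 2.09, 1.05 and 2.27 after irradiation (log2 -1.51, adjusted p = 0.0415). In both genes all IR values lay well below the lowest control. Tnfrsf17, the BCMA receptor that plasma cells need for survival, fell by 1.25, and the kinase gene Pim2 by 0.81, from 3.62, 3.88 and 4.07 to 1.75, 2.05 and 1.52 FPKM. Jchain, which joins the units of secreted immunoglobulin A, was at 1005, 615 and 622 FPKM in the controls against 159, 69.7 and 194 after irradiation without passing (adjusted p = 0.0693), and so was Prdm1, the transcription factor of plasma cell identity, at 3.32, 3.3 and 2.6 in the controls against 1.25, 1.33 and 1.74 after irradiation (adjusted p = 0.0628).

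Ms4a1, which encodes CD20 of naive and follicular B cells, varied widely among the controls, at 0.0551, 6.17 and 3.78 FPKM in the controls against 0.238, 1.14 and 0.485 after irradiation. Control 1 lay below all IR libraries for this gene, and controls 2 and 3 above them. The 1 tested member of the list with a higher mean in IR was Sdc1, at 27.7, 29.9 and 33.2 FPKM in the controls against 31.5, 39.3 and 32.2 after irradiation, which epithelium also expresses. Without control 3 none of the 25 was called, and without control 1, control 2, IR 1 or IR 3 1 was called in each case. Named after their values were seen, Ccr10, the receptor that guides immunoglobulin A plasma cells to mucosa, fell from 3.06, 3.57 and 3.08 to 1.09, 0.592 and 1.36 FPKM (log2 -1.09, adjusted p = 0.0464), and St6gal1, a sialyltransferase of B cells, liver and epithelium, from 9.57, 10.4 and 9.12 to 2.62, 2.5 and 2.9 (log2 -1.54, standard error 0.086, adjusted p = 0.0074).

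**Figure D2:**
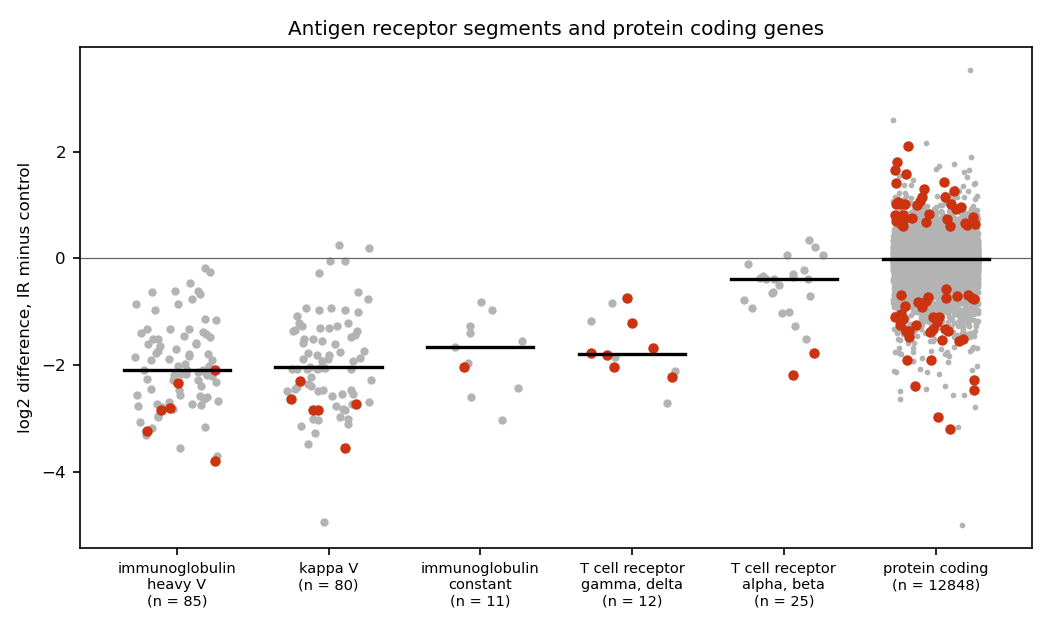
Difference IR minus control on the log2(FPKM + 1) scale for tested antigen receptor segments by class and for protein coding genes. Each point is a gene, red points were called, black lines are class medians, and n is the number tested. The immunoglobulin classes and the gamma and delta T cell receptor segments centre near -2, with medians of -2.1, -2.04, -1.66 and -1.79, the alpha and beta segments at -0.39 and protein coding genes at -0.00.

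Genes of intraepithelial lymphocytes fell too. Of 25 tested genes of intraepithelial and other T lymphocytes 24 were lower (median log2 -0.79, -0.80 without IR 2), 17 with no overlap of the groups, and 7 were called. The 17 were 68% and the 7 were 28% of those tested, against 14.2% and 0.465% of all genes. Ccl5, a chemokine stored by cytotoxic lymphocytes, lies on the minus strand of chromosome 11 between 83525778 and 83530518 and was at 96.8, 139 and 79.6 FPKM in the controls against 9.43, 8.38 and 13.6 after irradiation. All 3 IR values lay far below the lowest control, and the gene fell by 3.2 in log2 (standard error 0.25, adjusted p = 0.0151, 0.0109 to 0.25 over the alternatives). Cd7, of intraepithelial and natural killer cells, was at 31.7, 44. and 29. FPKM in the controls against 5.57, 3.57 and 7.66 after irradiation (log2 -2.47, adjusted p = 0.0244), and Cd8a, the alpha chain of the CD8 co-receptor, at 14.7, 15.5 and 11.5 in the controls against 2.8, 2.47 and 3.69 after irradiation (log2 -1.9, adjusted p = 0.0157). Cd3g of the T cell receptor complex fell from 9.44, 11.4 and 7.43 to 2.55, 3.38 and 3.55 FPKM (log2 -1.32), the natural killer receptor gene Klrd1 from 5.9, 6.59 and 5.11 to 1.51, 2.57 and 1.7 (log2 -1.24), and perforin, Prf1, from 1.39, 1.61 and 1.12 to 0.335, 0.516 and 0.401 (log2 -0.74). The granzyme genes Gzma and Gzmb, whose proteins enter target cells through perforin, were at 229, 309 and 188 FPKM in the controls against 63.2, 28.1 and 85.5 after irradiation, and at 90.6, 90.7 and 75.4 in the controls against 27.3, 25.4 and 50.7 after irradiation, with no overlap and without passing (adjusted p = 0.0947 and 0.0961). Without control 1, control 3 or IR 1 none of the 7 was called, and without control 2 1 was. Scaled to the read totals 4 were.

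The constant regions of the gamma and delta receptor chains, which mark the gamma delta lymphocytes that are abundant in gut epithelium, fell. Those of the alpha and beta chains did not pass the test. Their summed FPKM was 39.3, 68.7 and 36.5 in the controls against 22.6, 36.7 and 33.3 in IR, with overlap. Trdc was at 3.0, 3.01 and 2.54 FPKM in the controls against 0.658, 0.414 and 0.917 after irradiation (log2 -1.22, adjusted p = 0.0244), and Tcrg-C1, Tcrg-C2 and Tcrg-C4 fell by 2.03, 2.23 and 1.77. The gamma constant genes resemble each other, so their single values are uncertain. Trac was at 10.6, 17.9 and 9.85 FPKM in the controls against 6.91, 11.3 and 10.1 after irradiation (adjusted p = 0.443). Trbc2 was at 19.1, 31.5 and 18.1 in the controls against 11.1, 15.9 and 14.7 after irradiation, with no overlap (adjusted p = 0.246). Cd4, of helper T cells, was at 3.74, 5.56 and 4.35 in the controls against 3.39, 5.07 and 4.72 after irradiation (log2 -0.04, adjusted p = 0.902). The summed FPKM of the 4 gamma and delta constant regions over that of the 3 alpha and beta ones was 1.27, 0.789 and 1.14 in the controls and 0.463, 0.174 and 0.359 in IR. The groups did not overlap in this ratio, which was computed after the values of its genes had been seen and is given without a test. Of the gamma and delta segments 12 of 12 were lower and 7 were called (58.3%, against 0.465% of all genes). Among the 7, Trgj1 and Trdv5 also had too few reads to give a level. Trgj1 had 4, 3 and 3 reads in control and 0, 1 and 0 in IR, and Trdv5 6, 7 and 5 in control and 1, 0 and 1 in IR. Of the alpha and beta segments 21 of 25 were lower, and the 2 called were the joining segments Trbj1-1, with 2, 2 and 2 reads in control and 0, 0 and 0 in IR, and Trbj1-2, with 4, 2 and 3 in control and 0, 0 and 0 in IR, which is too few to give a level. Against 9 called segments of both kinds, 1 was called without control 1, control 3 or IR 1, 2 without control 2, 3 without IR 3 and 10 without IR 2. In limma-voom on recovered reads, for genes with a mean of at least 10 reads, 4 were called.

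**Figure D3:**
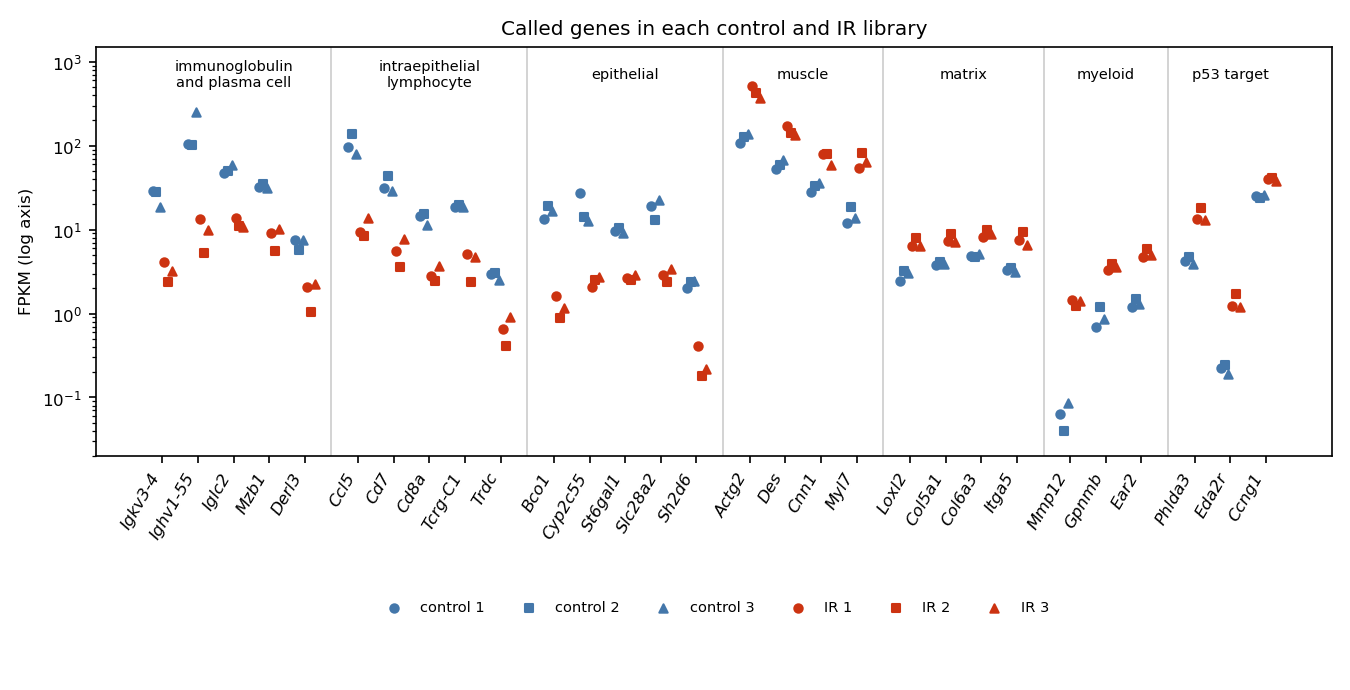
FPKM of 29 called genes in each library, on a log axis. Blue points are controls, red points IR libraries, and circle, square and triangle stand for libraries 1, 2 and 3 of a group. In every gene shown the groups are apart, as for Mmp12 at 0.0394 to 0.0854 FPKM in control and 1.22 to 1.45 in IR.

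The tested mast cell and red cell genes were lower beside the lymphocytes without passing the test. Of 9 listed mast cell genes only 3 were tested. Mcpt1, a protease of mucosal mast cells, was at 5.72, 6.92 and 6.71 FPKM in the controls against 0.301, 2.63 and 0.968 after irradiation (log2 -1.82, adjusted p = 0.0917), and Mcpt2 at 2.3, 1.93 and 2.16 in the controls against 0.0959, 1.21 and 0.257 after irradiation (log2 -1.11, adjusted p = 0.13). IR 2 was the highest of the IR libraries for both, and without it their adjusted p was 0.0255 and 0.0219. Neither passed in any other alternative. Tpsb2 and Ms4a2 stayed below 0.1 FPKM and were not tested. Cma1 and Cpa3, named after their values were seen, were not tested either. Cma1 was at 0, 0.157 and 0 FPKM in the controls against 0.0933, 0.326 and 0.1 after irradiation, and Cpa3 at 0.487, 0.677 and 0.407 in the controls against 0.0671, 0.205 and 0.108 after irradiation. Kit, which interstitial cells of Cajal also express, was at 2.67, 4.26 and 3.78 FPKM in the controls against 3.75, 3.24 and 3.13 after irradiation. All 4 tested haemoglobin genes were lower with no overlap, among them Hbb-bs at 18.7, 21.6 and 33.7 FPKM in the controls against 9.73, 15.7 and 11.6 after irradiation (adjusted p = 0.17). Named after their values were seen, 3 more immune cell genes fell: Cd96 by 1.36, Lax1, an adaptor of lymphocyte receptors, by 1.53, and Cd209a, a lectin of dendritic cells, by 1.33 on the log2 scale.

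Markers of muscle moved the other way in the same libraries. The 16 smooth muscle genes summed to 813 to 1034 FPKM in the controls and 1652 to 2201 in the IR libraries. All 16 were higher and had groups that did not overlap, against 14.3% of all genes. Their part in the falls of lymphoid and epithelial genes was not tested. Of the summed FPKM they made up 0.173, 0.208 and 0.223% in the controls and 0.553, 0.607 and 0.404% in IR.

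Actg2, the gamma actin of gut smooth muscle, on the minus strand of chromosome 6 between 83512905 and 83536265, was at 108, 126 and 139 FPKM in the controls against 516, 429.5 and 370.2 after irradiation. Every IR library lay far above the highest control, and the gene rose by 1.81 on the log2 scale (standard error 0.17, adjusted p = 0.0189, 0.0128 to 0.466 over the alternatives). Des, the intermediate filament desmin, rose from 52.3, 58.7 and 68.1 to 172, 142 and 134 FPKM (log2 1.31, adjusted p = 0.0285), and Cnn1, the calponin that binds actin in smooth muscle, from 27.8, 33. and 35.5 to 80., 78.7 and 59.4 (log2 1.15, adjusted p = 0.0447). Synm, which joins desmin filaments, rose by 1.05 and caldesmon, Cald1, by 0.93. IR 3 had the lowest value of the IR libraries in each of these genes. The list median was 0.91 (0.85 without IR 2, with 2 called), and no member was called without any 1 of the other 5 libraries. Myl7, an atrial myosin light chain, on the minus strand of chromosome 11 between 5896637 and 5898782, is no member of the list and had the largest log2 rise of the called genes, from 11.9, 18.7 and 13.9 to 54.7, 82.5 and 64.3 FPKM (log2 2.11, standard error 0.21, adjusted p = 0.0214). Named after their values were seen, the striated muscle genes Ckm, Flnc and Apobec2 rose by 0.74, 0.81 and 1.43. Ddah1, which breaks down methylated arginines that inhibit nitric oxide synthesis, rose from 2.51, 4.25 and 4.44 to 17., 13.2 and 11.1 FPKM (log2 1.65).

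Other cells of the wall held no call. Enteric neuron and glia genes had a median of -0.01 (-0.09 without IR 2 and 0.20 after scaling to a total that leaves out mitochondrial, immunoglobulin and pancreatic genes, or 0.17 scaled to the read totals, both of which turn the sign), with 0 of 17 called. Nos1, of inhibitory motor neurons, was at 0.484, 0.568 and 0.61 FPKM in the controls against 0.812, 0.833 and 0.675 after irradiation, and the neuropeptide gene Tac1 at 2.61, 2.7 and 2.49 in the controls against 3.07, 3.05 and 2.44 after irradiation. Endothelial genes had a median of -0.07 (0.10 after that rescaling and 0.08 scaled to the read totals, again a turn of sign), with 0 of 19 called. Kdr, a receptor of vascular growth factor, was at 7.16, 5.24 and 6.3 FPKM in the controls against 4.51, 3.32 and 5.18 after irradiation (adjusted p = 0.251).

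Collagen and other matrix genes were higher in 25 of 25 tested members (median log2 0.67, 0.54 without IR 2), 21 with no overlap, and 4 were called. The 21 were 84% and the 4 were 16% of those tested, against 14.3% and 0.269% of all genes. Loxl2, a lysyl oxidase that crosslinks collagen, was at 2.42, 3.25 and 3.01 FPKM in the controls against 6.36, 7.94 and 6.41 after irradiation, a rise of 1.02 on the log2 scale (standard error 0.12, adjusted p = 0.0295). Col5a1, whose chain starts collagen fibrils, rose from 3.84, 4.09 and 3.89 to 7.32, 8.9 and 7.03 FPKM (log2 0.82, adjusted p = 0.0301), and Col6a3, of the microfibrils around cells, from 4.85, 4.68 and 5.08 to 8.26, 9.85 and 8.99 (log2 0.77, adjusted p = 0.0285). The controls of Col5a1 and Col6a3 lay close together, those of Loxl2 less so, and in all 3 genes the IR libraries stood clear of the controls. Col12a1 rose by 0.76. The main fibrillar chains Col1a1 and Col3a1 were at 21.2, 23.3 and 19.5 FPKM in the controls against 38.7, 59.8 and 42.6 after irradiation, and at 33.7, 35.4 and 30.1 in the controls against 49.6, 72.1 and 55.6 after irradiation, without passing (adjusted p = 0.0653 and 0.0961). Itga5, the integrin chain of the fibronectin receptor, rose from 3.33, 3.53 and 3.16 to 7.52, 9.34 and 6.65 FPKM (log2 1.02, adjusted p = 0.0296). Without IR 2 8 members were called, and none was after leaving out any 1 of the other 5 libraries or after scaling to a total that leaves out mitochondrial, immunoglobulin and pancreatic genes, or to the read totals. Genes of TGF-beta signalling and fibrosis had a median of 0.11 with 0 of 19 called: the gelatinase gene Mmp2 was at 18.2, 16.8 and 19.4 FPKM in the controls against 27.7, 42.5 and 31.7 after irradiation and the inhibitor Smad7 at 12., 10.2 and 14.5 in the controls against 6.75, 4.91 and 8.93 after irradiation (adjusted p = 0.0953 and 0.172).

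Macrophage genes were higher in 17 of 20 tested members (median log2 0.66, 0.49 without IR 2), and 1 was called (5%, against 0.269% of all genes). That was Gpnmb, a glycoprotein of lipid-laden and scavenging macrophages, at 0.689, 1.2 and 0.854 FPKM in the controls against 3.26, 3.94 and 3.55 after irradiation (log2 1.27, standard error 0.12, adjusted p = 0.0189). Lyz2, the macrophage lysozyme, was at 116, 185 and 141 FPKM in the controls against 247, 483 and 285 after irradiation (adjusted p = 0.153), and Cd68, of macrophage lysosomes, at 8.55, 9.25 and 7.97 in the controls against 13.5, 22.8 and 18. after irradiation (adjusted p = 0.0909). The groups did not overlap in any of these, and IR 2 was the highest. Gpnmb was not called without control 1, control 3, IR 1 or IR 3. Chil3 and Trem2, of activated macrophages, were near 0 in control: Chil3 was at 0.0348, 0.0349 and 0.0379 FPKM in the controls against 1.12, 1.85 and 0.836 after irradiation, and Trem2 at 0.0115, 0.0576 and 0.0625 in the controls against 0.514, 1.17 and 0.529 after irradiation (adjusted p = 0.0512 and 0.114). Csf1r, the growth factor receptor of macrophages, was at 22.1, 22.5 and 22.4 FPKM in the controls against 17.2, 25.2 and 23. after irradiation.

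Mmp12, the macrophage elastase, was named after its values were seen. It had 8, 5 and 10 reads in control and 206, 198 and 189 in IR, or 0.0628, 0.0394 and 0.0854 FPKM in the controls against 1.45, 1.22 and 1.42 after irradiation, a ratio of 21.8 between the means (log2 1.15 on the log2(FPKM + 1) scale, which understates low genes, adjusted p = 0.0151). Atp6v0d2, a proton pump subunit of macrophages and osteoclasts, had 3, 11 and 9 reads in control and 67, 93 and 64 in IR (adjusted p = 0.0189), and was likewise named after its values were seen. Ear2, a ribonuclease of eosinophils and macrophages with close paralogs, rose from 1.19, 1.51 and 1.29 to 4.67, 5.87 and 5.01 FPKM (log2 1.41, adjusted p = 0.0151). The eosinophil lectin gene Siglecf was at 1.55, 1.14 and 1.57 FPKM in the controls against 0.438, 0.749 and 0.626 after irradiation, the other way and without passing (adjusted p = 0.0961). Of 9 tested granulocyte genes S100a8, a calprotectin subunit, was called, with 2, 1 and 0 reads in control and 17, 19 and 13 in IR. It was called without IR 2 but not without any 1 of the other 5 libraries. The neutrophil granule genes Mpo, Elane and Camp stayed below 0.41 FPKM in every library and were not tested. The coagulation factor gene F7, named after its values were seen, went from 0, 1 and 1 to 23, 47 and 26 reads.

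The promoters of Mmp12 and Gpnmb share a motif, and that of Myl7 holds a box known from muscle genes. They are shown from RefSeq (GRCm38.p6), 5′ to 3′ on the strand of the gene, at chr9:7347124-7347423 (plus strand), chr6:49036268-49036567 (plus) and chr11:5898733-5899032 (minus). Capitals mark TGACTCA or its reverse complement TGAGTCA, the letters bound by AP-1 factors, in Mmp12 and Gpnmb, and the CArG box of serum response factor in Myl7:
Mmp12: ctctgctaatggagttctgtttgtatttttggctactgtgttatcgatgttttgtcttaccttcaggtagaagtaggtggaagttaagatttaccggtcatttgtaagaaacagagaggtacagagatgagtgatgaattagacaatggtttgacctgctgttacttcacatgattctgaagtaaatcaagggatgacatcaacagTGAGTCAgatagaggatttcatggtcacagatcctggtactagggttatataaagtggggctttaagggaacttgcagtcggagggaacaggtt
Gpnmb: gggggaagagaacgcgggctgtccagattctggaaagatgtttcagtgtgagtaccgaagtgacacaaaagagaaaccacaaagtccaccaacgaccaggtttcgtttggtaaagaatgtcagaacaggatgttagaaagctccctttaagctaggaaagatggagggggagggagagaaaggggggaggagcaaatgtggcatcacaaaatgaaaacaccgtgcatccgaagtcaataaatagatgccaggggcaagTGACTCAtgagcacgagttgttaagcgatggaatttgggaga
Myl7: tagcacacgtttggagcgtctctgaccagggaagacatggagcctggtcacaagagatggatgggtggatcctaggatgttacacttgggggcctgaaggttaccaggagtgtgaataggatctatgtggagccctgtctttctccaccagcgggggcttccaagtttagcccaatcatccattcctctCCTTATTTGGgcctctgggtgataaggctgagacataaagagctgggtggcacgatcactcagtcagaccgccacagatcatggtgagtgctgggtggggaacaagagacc
The motif starts 44 bases before the annotated start in Mmp12, just after the start in Gpnmb, and the box 61 bases before it in Myl7. On either strand TGACTCA was found in a promoter of 5.95% of the 27025 genes of the RefSeq promoter set and 4.8% of the 10073 tested protein coding genes with one. It was found in 3 of the 27 protein coding genes called higher that had a promoter there (11.1%: Cald1, Gpnmb and Mmp12) and in 1 of the 27 called lower. The CArG box was found for 1.81% of the genes of the RefSeq promoter set and 1.6% of those tested, in 1 of those 27 called higher and 1 of those 27 called lower. The RefSeq start of Mmp12 lies inside the gene as GENCODE M21 draws it. These matches describe the sequence only.

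Among 29 tested targets of p53 3 were called higher (10.3%, against 0.269% of all genes) and none was called lower. Phlda3, which inhibits the kinase AKT, on the plus strand of chromosome 1 between 135766119 and 135769136, was at 4.19, 4.75 and 3.89 FPKM in the controls against 13.6, 18. and 12.9 after irradiation, a rise of 1.57 on the log2 scale (standard error 0.14, adjusted p = 0.0189, 0.0164 to 0.344 over the alternatives). Eda2r, a death receptor of the TNF family, had 23, 25 and 18 reads in control and 141, 229 and 131 in IR (log2 0.96, adjusted p = 0.0284). Ccng1, cyclin G1, was at 25.1, 24. and 25.6 FPKM in the controls against 40.2, 40.7 and 37.7 after irradiation (log2 0.64, standard error 0.0874, adjusted p = 0.0417). In all 3 genes the lowest IR value lay well above the highest control. The arrest gene Cdkn1a, which encodes p21, was at 73.4, 64.1 and 75. FPKM in the controls against 56.4, 42.4 and 65.8 after irradiation, and Mdm2, whose protein degrades p53, at 12.8, 10.1 and 10.3 in the controls against 9.19, 8.05 and 9.58 after irradiation (adjusted p = 0.312 and 0.292). The pro-death gene Bax was at 19., 26.1 and 25.6 FPKM in the controls against 29.1, 38.8 and 30.4 after irradiation (adjusted p = 0.251), and the secreted factor Gdf15 at 0.46, 0.339 and 0.30 in the controls against 0.824, 1.15 and 0.707 after irradiation (adjusted p = 0.138). Over the list 16 members were higher and 13 lower, with a median of 0.05. Of the 29, 12 were higher with no overlap (41.4%, against 14.3% of all genes). Another 4, Mdm2 among them, were lower with no overlap (13.8%, against 14.2% of all genes). None of the 3 was called without control 1, control 2, control 3 or IR 1, and 1 was after rescaling or when scaled to the read totals.

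Genes of death and repair held no call. Of 19 BCL2 family genes 0 were called (median log2 0.03), and Bcl2, which blocks cell death, was at 1.38, 1.7 and 1.61 FPKM in the controls against 1.49, 1.86 and 1.5 after irradiation. Of 25 DNA damage and repair genes 22 were higher and 0 were called (median 0.10, 0.04 without IR 2). Xrcc5, the Ku80 subunit that binds broken ends, was at 4.87, 5.53 and 5.23 FPKM in the controls against 6.99, 8.09 and 6.04 after irradiation with no overlap (adjusted p = 0.202).

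No crypt gene passed the test. Of 19 tested stem cell genes 16 were higher (median log2 0.25, 0.18 without IR 2). Of the 19, 13 were higher with no overlap (68.4%, against 14.3% of all genes) and 1 was lower with no overlap. Lgr5, the receptor that marks crypt base columnar cells, was at 1.59, 1.74 and 1.52 FPKM in the controls against 1.45, 1.13 and 1.25 after irradiation (log2 -0.20, adjusted p = 0.283), and Olfm4, secreted by the same cells, at 298, 282 and 253 in the controls against 338, 304 and 294 after irradiation (adjusted p = 0.502). Lgr5 was thus lower in every IR library than in any control, and Olfm4 overlapped. Sox9, a transcription factor of crypt and progenitor cells, was at 4.87, 4.21 and 4.66 FPKM in the controls against 7.01, 7.05 and 7.07 after irradiation and stood just above the threshold (log2 0.53, adjusted p = 0.050). Proliferation genes were higher in 24 of 25 (median 0.28, 0.16 without IR 2) and 0 were called. In 4 the groups did not overlap (16%), near the 14.3% of all genes. Mki67, the Ki-67 antigen, was at 16.8, 20.7 and 16.7 FPKM in the controls against 18.8, 22.3 and 19.4 after irradiation, and the groups overlapped.

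Genes of the regenerative, fetal-like epithelium that follows injury were higher in 18 of 20 tested members, 13 with no overlap (65%, against 14.3% of all genes) and 0 called (median log2 0.65, 0.37 without IR 2). S100a6, a calcium binding protein of that state, was at 13.6, 19.8 and 18.7 FPKM in the controls against 38.8, 91.5 and 39.8 after irradiation (log2 1.55, adjusted p = 0.119). Cyr61, a target of the YAP pathway, was at 6.25, 5.73 and 4.22 FPKM in the controls against 10.2, 9.18 and 8.94 after irradiation (log2 0.72, adjusted p = 0.0917), and Anxa3, an annexin, at 2.47, 2.5 and 2.8 in the controls against 4.24, 8.97 and 4.58 after irradiation (adjusted p = 0.17). IR 2 was far above the other IR libraries for S100a6 and Anxa3 but not for Cyr61. Clu, the marker of revival stem cells, had means and errors of 22.6 ± 17.5 and 20. ± 11.5 FPKM (SD, n = 3) and differed by 0.07 (adjusted p = 0.967). The stem cell antigen gene Ly6a was at 32.8, 39.2 and 33.8 FPKM in the controls against 31.1, 275 and 60.4 after irradiation, with overlap. The stromal signal Grem1, a BMP antagonist of the crypt niche, was at 7.39, 10.9 and 9.1 FPKM in the controls against 14.7, 29.3 and 16.2 after irradiation (adjusted p = 0.163), and 0 of 21 niche genes were called.

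Paneth cell genes were lower in 18 of 20 tested members, 15 of them with no overlap (75%, against 14.2% of all genes), and 0 were called (median log2 -0.98, -0.83 without IR 2). Paneth cells secrete defensins and lysozyme at the crypt base. The defensin Defa5 was at 162, 197 and 184 FPKM in the controls against 98.3, 57.2 and 59.6 after irradiation (log2 -1.36, adjusted p = 0.0692), and the lysozyme gene Lyz1 differed by -0.92 (adjusted p = 0.188). Ang4, an antimicrobial ribonuclease, was at 1174, 1472 and 1675 FPKM in the controls against 1026, 617 and 624 after irradiation (adjusted p = 0.172). IR 1 was the highest IR library for each of these. The exceptions were Mmp7, the protease that activates defensins, at 176, 268 and 249.7 FPKM in the controls against 325, 225 and 200.2 after irradiation, and Pla2g2a, a secreted phospholipase, at 45.4, 48.2 and 43.7 in the controls against 69.8, 49.2 and 40.7 after irradiation, with overlapping groups in both. Defensin genes are near-identical copies, so single values are uncertain: together 22 of them held 7.68, 11.1 and 10.8% of the FPKM in control and 7.96, 5.97 and 5.18% in IR (exact two-sided permutation p = 0.2).

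Tuft cells, which sense luminal signals, had 14 of 16 tested genes lower, 9 with no overlap, and 3 called (median log2 -0.29, -0.36 without IR 2). The 9 were 56.25% and the 3 were 18.75% of those tested, against 14.2% and 0.465% of all genes. Sh2d6, an adaptor protein gene, was at 2.0, 2.4 and 2.42 FPKM in the controls against 0.41, 0.179 and 0.22 after irradiation (log2 -1.37, standard error 0.11, adjusted p = 0.0151). Rgs13, a regulator of G protein signals, fell from 3.19, 3.2 and 4.37 to 1.01, 0.456 and 0.923 FPKM (log2 -1.36, adjusted p = 0.0295), and Avil, advillin of actin bundles, from 1.82, 1.81 and 2.33 to 0.659, 0.915 and 0.754 (log2 -0.75, adjusted p = 0.0447). The channel gene Trpm5 was at 0.773, 1.01 and 1.24 FPKM in the controls against 0.469, 0.16 and 0.375 after irradiation and the kinase gene Dclk1 at 0.784, 0.984 and 0.889 in the controls against 0.485, 0.601 and 0.542 after irradiation, both with no overlap and without passing (adjusted p = 0.119 and 0.182). Without control 1, control 2, control 3 or IR 3 none of the 3 was called. Goblet and enteroendocrine genes held no call. The goblet median was -0.07 (0.16 after the rescaling and 0.13 scaled to the read totals, which turns the sign), with the mucin Muc2 at 17.4, 27.9 and 28.2 FPKM in the controls against 20.7, 25.9 and 21.1 after irradiation. The enteroendocrine median was -0.14 (0.00 after rescaling), with somatostatin, Sst, at 55.3, 52.5 and 64. FPKM in the controls against 39.5, 35.6 and 34.7 after irradiation (adjusted p = 0.0867) and chromogranin A, Chga, at 28.9, 32.1 and 29.5 in the controls against 20.5, 14.8 and 23.3 after irradiation (adjusted p = 0.165).

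The lists of sugar, peptide and fat absorption genes had their lowest medians in IR 2, and no member of them passed the test. Of 10 tested markers of the proximal small intestine 8 were lower and 0 called, their medians were -0.52, -2.4 and -0.31 in IR 1, IR 2 and IR 3 against -0.37 to 0.56 for single controls, and their summed level was 1568 to 4347 FPKM in the controls and 197 to 2703 in IR. The part of gut position in the absorption and xenobiotic values was not tested. Of 24 genes of sugar and peptide digestion and uptake 24 were lower, 18 with no overlap (75%, against 14.2% of all genes), and 0 were called (median log2 -1.21, -0.48 without IR 2). The medians in IR 1, IR 2 and IR 3 were -0.56, -2.66 and -0.42 relative to the control mean, against -0.13 to 0.17 for single controls. The sodium glucose cotransporter Slc5a1 was at 1224, 821 and 803 FPKM in the controls against 399, 79. and 471 after irradiation (log2 -1.91, adjusted p = 0.238), and the peptide transporter Slc15a1 at 161, 158 and 179 in the controls against 81.9, 10.9 and 97.6 after irradiation (log2 -1.86, adjusted p = 0.28). Genes of fat absorption had a median of -0.88 (-0.31 without IR 2), with 17 of 21 lower and 0 called. The triglyceride enzyme gene Dgat1 was at 244, 191 and 203 FPKM in the controls against 154, 69.6 and 169.5 after irradiation (adjusted p = 0.293).

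Enzymes of drug and xenobiotic metabolism were lower in 28 of 28 tested members, 16 with no overlap (median log2 -0.90, -0.53 without IR 2), and 1 was called. The 16 were 57.1% and the 1 was 3.57% of those tested, against 14.2% and 0.465% of all genes. Cyp2c55, a cytochrome P450 with close paralogs, fell from 27.6, 14.1 and 12.6 to 2.06, 2.52 and 2.76 FPKM (log2 -2.39, standard error 0.28, adjusted p = 0.0285), and it was not called without control 2, control 3 or any 1 IR library. Cyp3a11, the main drug oxidizing cytochrome of mouse gut and liver, had the largest log2 difference of the list and was at 364, 90.1 and 139 FPKM in the controls against 7.12, 0.567 and 10.2 after irradiation (log2 -5.0, standard error 0.84, adjusted p = 0.0695). The highest IR value lay far below the lowest control, and the spread within each group was wide. Cyp2b10 was at 208, 86.3 and 128 FPKM in the controls against 32.8, 0.968 and 48.1 after irradiation, Cyp2c66 at 52.5, 11.6 and 11.2 in the controls against 3.03, 0.776 and 4.51 after irradiation, and the efflux pump Abcb1a at 145, 109.9 and 127 in the controls against 72.5, 43. and 78.6 after irradiation, with no overlap in any of the 3 (adjusted p = 0.258, 0.157 and 0.141).

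Bco1, the oxygenase that cleaves provitamin A carotenoids to retinal, fell in all 3 IR libraries. It lies on the plus strand of chromosome 8 between 117095854 and 117133720 and was at 13.2, 19.3 and 16.8 FPKM in the controls against 1.6, 0.874 and 1.18 after irradiation, from 591, 861 and 691 and 80, 50 and 55 reads. The means of 16.4 ± 3.06 and 1.22 ± 0.365 FPKM (SD, n = 3) differed 13.5-fold, and the log2 difference was -2.97 (standard error 0.17, adjusted p = 0.0074, 0.00532 to 0.377 over the alternatives, with 15 of 17 past the threshold). The exceptions were the fit of all 9 libraries and that without control 3. Bco2, which cleaves carotenoids elsewhere in the chain, was at 47., 32.6 and 29.7 FPKM in the controls against 25.4, 8.01 and 24.2 after irradiation with IR 2 far lowest (adjusted p = 0.287), and Scarb1, a receptor of carotenoid uptake, at 2.11, 2.09 and 2.15 in the controls against 1.95, 2.65 and 2.2 after irradiation (log2 0.06, adjusted p = 0.73). Lrat, which esterifies retinol, was at 7.09, 4.53 and 6.38 FPKM in the controls against 4.46, 1.7 and 2.81 after irradiation (adjusted p = 0.213), and Isx, a homeobox repressor of Bco1, at 39.4, 44.4 and 61.8 in the controls against 59.3, 33. and 40.2 after irradiation (adjusted p = 0.757). Of the 15 tested retinoid and carotenoid genes Bco1 alone was called (median log2 -0.31, -0.02 without IR 2). Lycopene itself was given to neither of the groups compared here.

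5 more genes that fell were picked with their values known. Slc28a2, a sodium nucleoside cotransporter, fell from 18.9, 13.1 and 22.3 to 2.89, 2.41 and 3.37 FPKM (log2 -2.28, standard error 0.20, adjusted p = 0.0182). Cpm, carboxypeptidase M of the cell surface, fell from 3.52, 4.34 and 4.75 to 1.2, 1.27 and 1.35 FPKM (log2 -1.19), and Cmah, which hydroxylates sialic acid in mice, from 1.96, 2.01 and 1.78 to 0.658, 0.504 and 0.537 (log2 -0.90). Igfbp3, which binds insulin-like growth factors, fell from 26.3, 21.5 and 24.8 to 9.15, 6.7 and 10.5 FPKM (log2 -1.38), and Dtx1, a regulator of Notch signalling, by 1.09. The groups did not overlap in any of these genes.

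**Figure D4:**
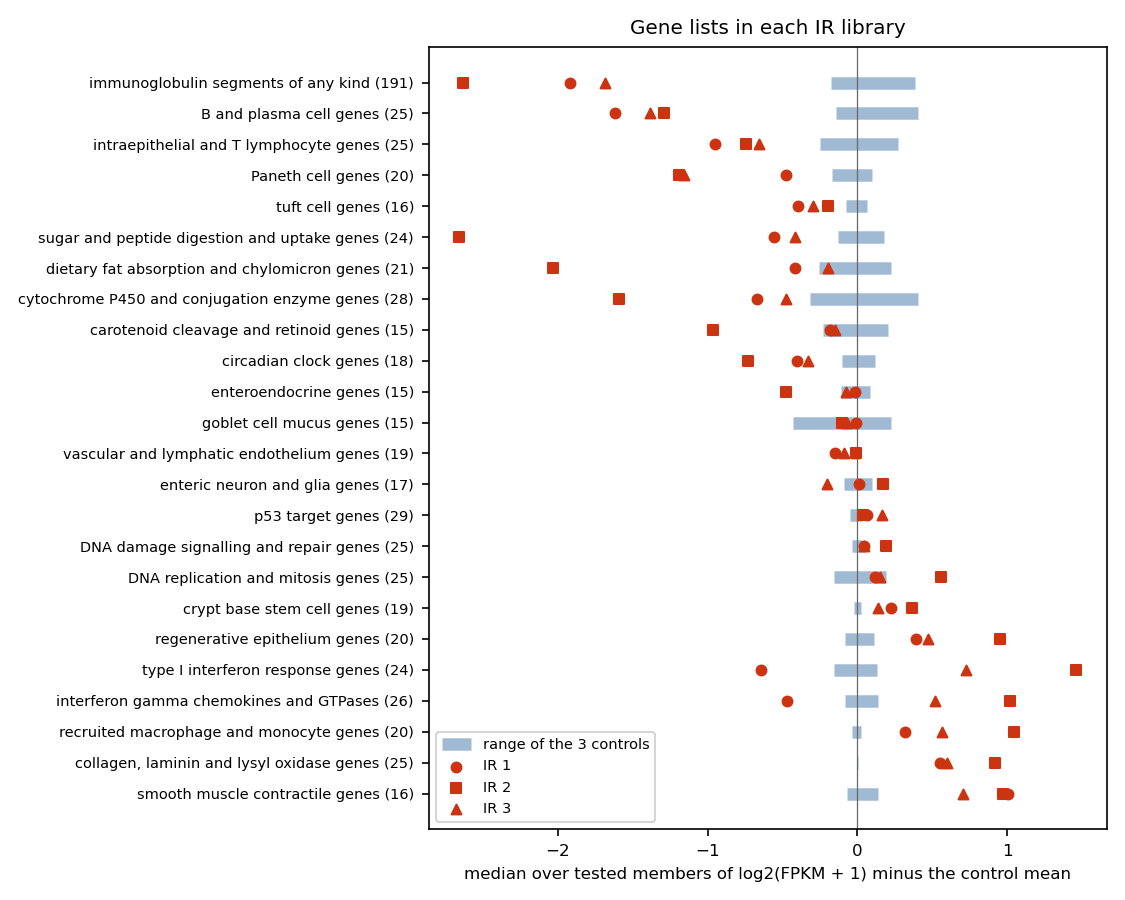
Median over the tested members of each gene list (number in brackets) of log2(FPKM + 1) minus the control mean, in IR 1 (circle), IR 2 (square) and IR 3 (triangle), with the range of the single controls as a blue bar. The smooth muscle list lies above the controls in all 3 IR libraries, the absorption lists are lowest in IR 2, at -2.66 for sugar and peptide genes, and the type I interferon list runs from -0.64 in IR 1 to 1.46 in IR 2.

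Interferon response genes differed in direction among the IR libraries. The median of 24 type I interferon response genes was -0.64, 1.46 and 0.73 in IR 1, IR 2 and IR 3 relative to the control mean, and that of 26 interferon gamma genes -0.47, 1.02 and 0.51. IR 1 lay below all controls (-0.16 to 0.13 and -0.08 to 0.14), and IR 2 and IR 3 above them. Ifit2, an antiviral RNA binding protein gene, was at 4.01, 3.57 and 4.34 FPKM in the controls against 3.33, 32.9 and 8.18 after irradiation, and the lymphocyte attracting chemokine Cxcl9 at 8.22, 6.77 and 5.06 in the controls against 5.13, 29. and 22.6 after irradiation. No gene of either list was called or had groups that did not overlap, and the medians of all IR libraries, 0.47 and 0.24, became -0.05 and -0.00 without IR 2, which turns both signs. Of 13 genes of MHC class II presentation 0 were called (median -0.24), with H2-Ab1 at 534, 499 and 517 FPKM in the controls against 310.1, 467 and 397 after irradiation.

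No tested gene of the NF-kB list passed the test. Il6 did not pass 0.0509 FPKM in any library and was not tested. Tnf was at 0.59, 0.383 and 0.528 FPKM in the controls against 0.621, 1.41 and 0.865 after irradiation, and Il1b at 1.61, 1.67 and 1.07 in the controls against 1.49, 2.38 and 2.4 after irradiation (adjusted p = 0.283 and 0.331). Of 18 NF-kB genes 12 were lower and 0 were called (median log2 -0.23), and the feedback inhibitor Tnfaip3 was at 6.63, 6.87 and 6.95 FPKM in the controls against 4.58, 3.08 and 4.91 after irradiation with no overlap (adjusted p = 0.138). Among inducible antimicrobial genes Saa3, a serum amyloid, was at 0.414, 0.416 and 0.379 FPKM in the controls against 1.31, 7.14 and 1.63 after irradiation, with IR 2 far highest (adjusted p = 0.222, 0.0455 without IR 2), and Reg3g, a lectin that kills Gram-positive bacteria, at 943, 994 and 924 in the controls against 2616, 534 and 1578 after irradiation (adjusted p = 0.662). Saa3 passed in no alternative but the fit without IR 2.

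Of the antioxidant genes, Hmox1, haem oxygenase, was at 2.05, 2.08 and 2.08 FPKM in the controls against 3.34, 5.79 and 4.55 after irradiation (log2 0.83, adjusted p = 0.0919), and Nqo1, a quinone reductase under NRF2, at 22.3, 18.8 and 16.3 in the controls against 20., 20.1 and 23. after irradiation (adjusted p = 0.572). Hmox1 was higher in every IR library, Nqo1 overlapped, and 0 of 19 genes of that list were called. Tight junction genes held no call among 18: Tjp1, which encodes ZO-1, was at 18.3, 16.1 and 18.8 FPKM in the controls against 17.1, 13.2 and 18. after irradiation and occludin, Ocln, at 31.9, 24.5 and 29.2 in the controls against 29.1, 21.7 and 27.5 after irradiation (adjusted p = 0.587 and 0.656). Cldn2, a pore forming claudin of crypts, was at 22.4, 25.1 and 26.2 FPKM in the controls against 43.8, 74.1 and 35.7 after irradiation with no overlap (adjusted p = 0.165).

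Circadian clock genes were lower in 15 of 18 tested members, 11 with no overlap (61.1%, against 14.2% of all genes) and 0 called (median log2 -0.53, -0.37 without IR 2). The output factor Hlf was at 5.52, 3.2 and 3.74 FPKM in the controls against 1.66, 1.52 and 1.64 after irradiation (log2 -0.96, adjusted p = 0.0746), the repressor Per2 at 14.3, 12.5 and 12.4 in the controls against 9.12, 7.6 and 8.82 after irradiation (log2 -0.57, adjusted p = 0.0849), and the nuclear receptor Nr1d1 at 12.4, 22.2 and 10.8 in the controls against 6.58, 4.26 and 8.53 after irradiation (log2 -1.09, adjusted p = 0.181). The IR values of all 3 lay below the controls. The activators Clock and Arntl overlapped: Clock was at 8.05, 5.72 and 7.55 FPKM in the controls against 7.54, 4.83 and 7.27 after irradiation, and Arntl at 1.33, 1.44 and 1.68 in the controls against 1.66, 1.69 and 1.36 after irradiation. The hour of sampling is not stated. Mitochondrially encoded protein genes were lower in 12 of 13, 1 with no overlap (7.69%, against 14.2% of all genes), and 0 were called. Their median was -0.37, but -0.14 after scaling to a total that leaves out mitochondrial, immunoglobulin and pancreatic genes. Scaled to the read totals it was -0.16. All genes of the mitochondrial genome held a mean of 6.98% of the FPKM in control and 6.86% in IR. The transfer RNA mt-Th, with 5 to 29 reads a library, rose by 1.46 (adjusted p = 0.0296). Snrpe, a core protein of splicing particles, rose from 20.9, 17.1 and 19.3 to 32.8, 32.8 and 31.6 FPKM (log2 0.74, adjusted p = 0.0442).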

How the data were processed

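RNA sequencing of mouse intestine was analysed in 3 control and 3 IR libraries. The authors deposited 1 table of gene FPKM values, made after read cleaning with fastp and alignment with HISAT2 2.0.5, per the submitters' processing notes; the genome build, counter and use of strand are not given in the sources used here. The deposited FPKM values are relative to gene length and to a divisor of 0.875 to 1.2 times each library's recovered reads; how the authors set it is not stated. Dividing them by the value of 1 read gave whole reads within 0.01 read for 135282 of 135282 values above 0, and the recovered reads were used for depth and for an alternative count-based test. The deposited values were put on the log2 scale as log2(FPKM + 1), for genes that reached 0.5 FPKM in 3 or more of the 6 libraries, and tested with limma 3.58.1 (R 4.3.3) with a trend. The p-values computed here from the deposited values were adjusted by the Benjamini-Hochberg method over all 14846 genes, with 0.05 as the threshold. Depth was 18008213 to 20107262 recovered reads a library. Figures were drawn with matplotlib 3.10.9.

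Genes were named by rule: in each direction the 15 called genes with the largest log2 difference and no overlap of the groups, if 1 group averaged 5 FPKM or more and the gene was not a predicted one; up to 5 tested members of each list with the smallest p; and a fixed set that included Lgr5, Cdkn1a, Bco1 and Igha. The comparison, gene lists and rule were chosen with earlier results of these data known. Lists are described by counts and medians. Alternatives changed the pseudocount, filter, scaling, libraries in the fit, prior, replicate block and test. Scaling to the totals of recovered reads was added after seeing the data.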

Additional observations from a re-analysis of the deposited data

How the results depend on the processing

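All 109 genes, where tested, kept their direction under every alternative, and the number called depended on it. Against 109 called (40 higher, 69 lower), there were 38 (9 higher, 29 lower) with no filter, 31 (10 and 21) with a mean of at least 5 FPKM, 71 (27 and 44) after scaling to a total that leaves out mitochondrial, immunoglobulin and pancreatic genes, which moved the median of all genes by 0.18 on the log2 scale, 62 (20 and 42; 59 shared with the 109) scaled to the read totals, which was chosen after seeing the data and moved that median by 0.15, 4 (0 and 4) with all 9 libraries in the fit and 70 (18 higher) at a log2 difference of at least 1. Leaving out 1 library gave 2 to 99 calls, 0 to 35 higher and 2 to 64 lower. A pseudocount of 0.1, median-ratio scaling, no trend, a robust prior and limma-voom on recovered reads gave 96 to 114. With the replicate number as a block 28 were called (5 higher, 23 lower), 18 of them shared with the 109. Same-numbered libraries deviated from their group means with correlations of 0.16, 0.39 and -0.05. Control 1 correlated best with IR 3 (0.34), and control 2 with IR 2. Whether the numbers pair the libraries is not stated, and with 3 libraries a group these correlations cannot decide it. As shares of recovered reads in place of FPKM, the difference IR minus control was -1.32 percentage points for immunoglobulin genes, -0.00600 for T cell receptor genes and -0.685 for defensins. The causes were not tested. Of 47 gene lists 11 changed the sign of their median on rescaling and 12 on leaving out 1 library. Genes with few reads limit precision: 11 called genes had fewer than 10 reads in every library.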
